A study of Mus musculus with 4 samples.

Results

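Prostaglandin and leukotriene genes were followed across 4 arrays of mouse glomerular RNA. The 10 genes listed for this purpose encode the cyclooxygenases (Ptgs1, Ptgs2), the prostaglandin D, E and prostacyclin synthases (Ptgds, Ptges, Ptgis), receptors for prostaglandin E2 (Ptger1, Ptger3, Ptger4), leukotriene C4 synthase (Ltc4s) and its upstream partner, the 5-lipoxygenase activating protein (Alox5ap). The list was selected on intensities of these same arrays, KO against WT differences among them, so the differences of its genes are a description and no test. Members were found as probe sets annotated with a single one of these symbols: 9 of the 10 genes were measured, by 16 probe sets, out of 18193 named genes on the array, and Ptgs1 was not analysed here. Where a gene had several probe sets, the one with the highest mean over the 4 arrays gave its main value.

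The arrays held glomerular RNA of male mice, 1 array per group. The groups were GC-A knockout mice given aldosterone (KO ALDO), GC-A knockout mice given the control treatment (KO control), wild-type mice given aldosterone (WT ALDO) and wild-type mice given the control treatment (WT control). GC-A, encoded by Npr1, binds the cardiac natriuretic peptides ANP and BNP, and the knockout was systemic, so it was not limited to glomerular cells. ALDO mice received aldosterone by continuous subcutaneous delivery and a 6% salt diet for 3 weeks, control mice received 2% ethanol by the same route and a normal diet, and all mice, controls included, had lost a kidney to surgery beforehand. Strain, age, the design of the knockout allele and the number of animals behind each array are not stated in the labels used here. A single array stood for each group, so no difference was tested, and every difference below is a description of 2 arrays.

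Prostanoids are made when a phospholipase frees arachidonic acid from membranes, a cyclooxygenase turns it into prostaglandin H2, and a terminal synthase turns that into prostaglandin D2, prostaglandin E2, prostacyclin or thromboxane. Leukotrienes arise from the same fatty acid through 5-lipoxygenase, which needs Alox5ap to receive its substrate, and Ltc4s then joins the product to glutathione to give leukotriene C4. In the kidney, prostaglandins regulate glomerular blood flow, renin release and salt and water excretion, while leukotrienes are best known as products of myeloid cells. Ptges, Ltc4s and Alox5ap belong to a single family of small membrane proteins, and Ptgds is a lipocalin.

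Intensities are on a linear scale, with the mean of each array set to 500.003 after leaving out the outer 2% at each end. Differences are given as log2(intensity + 16), so a difference of 1 is 2-fold on that scale and changes of dim probe sets are understated. Between 2 arrays the median of all probe sets differed by 0.14 for KO ALDO against WT ALDO and by 0.11 for KO control against WT control, and by 0.07 and 0.03 for ALDO against control in KO and WT. Small genotype differences of dim probe sets should be read against that shift. Over the genes of the brighter 50%, the median KO against WT difference was 0.01 under ALDO and -0.00 under control, so their median did not show it. In 5903 genes of the brighter 50% with a second probe set, the log2 differences of the 2 brightest probe sets lay a median of 0.19 to 0.21 apart, which describes probes on the same RNA and not animals. The Npr1 probe set was dim (KO ALDO 23.4, KO control 108, WT ALDO 60.5, WT control 92.6), and no label places it relative to the deleted part, so it did not check the genotype labels. Podocyte markers were bright, with Nphs1 between 1675 and 1899, but so was the proximal tubule gene Kap, between 43854 and 49489, so the RNA held tubule transcripts too. In such a mixture, a higher share of a cell type and more RNA per cell cannot be told apart.

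Of the 9 measured genes, 7 lay in the brighter 50% of all genes by mean over the 4 arrays, a limit that corresponds to an intensity of about 247. Ptgs2 and Ptger1 lay below it. Ptges and Alox5ap passed although their WT control values were under the limit, so their place in the brighter 50% came from the KO arrays.

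**Figure D1:**
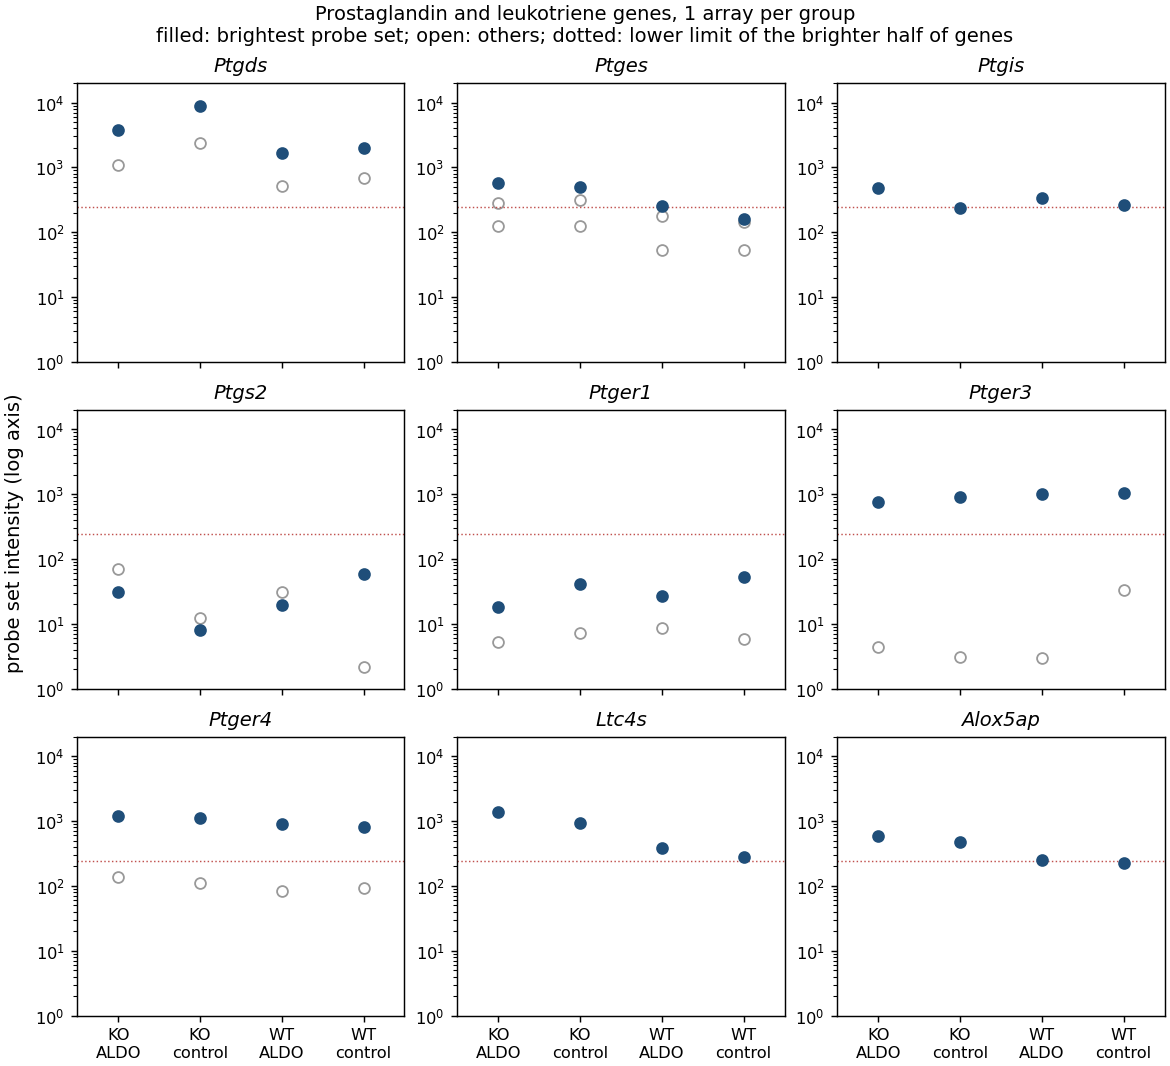
Intensity of every probe set (log axis) of the 9 measured genes on the 4 arrays, 1 point per array, with the brightest probe set filled, further probe sets open and the limit of the brighter 50% of genes dotted. Ltc4s and Alox5ap lie higher on both KO arrays than on both WT arrays, Ptgds is highest in KO control at 8819, and both probe sets of Ptgs2 stay under 71.

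Between genotypes, Ptgds, Ptges, Ltc4s and Alox5ap were each higher by 2-fold or more in KO, under ALDO and under the control treatment alike. Under ALDO these 4 were called among 9 measured genes, where 4.72% of all 18193 genes were higher to that extent. Under the control treatment the same 4 were called, where 4.44% of all genes were higher. In the brighter 50% they were 4 of 7, where 1.26% of the 9097 genes were higher under ALDO and 0.967% under control. Ptges and Alox5ap entered that set through their KO arrays, so these last shares are no fair measure for them. The contrasts share no array, but the list was selected with KO against WT differences of these arrays, so the repeat is no test. No gene of the list was lower by 2-fold under ALDO, where 2.34% of all genes were, and under the control treatment 1 was, the dim Ptgs2, against 2.46% of all genes. The median over the 9 genes was 0.48 under ALDO and 0.43 under the control treatment, beside 0.04 and 0.02 over all genes.

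The upstream 250 bases of 3 of these 4 genes are shown because the genes were higher on the same arrays, and for Alox5ap no sequence is shown. They come from RefSeq promoter windows of the mouse assembly GRCm38.p6, where 7 of the 10 listed genes had an entry, run 5′ to 3′ on the minus strand of the chromosome, on which all 3 genes lie, and end at the base before the annotated start. Capitals mark matches, on either strand, to 6 textbook motifs: the GC box GGGCGG, the TATA box TATAAA, the CCAAT box, the AP-1 site TGACTCA, the corticosteroid receptor half-site AGAACA and the PU.1 core GAGGAA.
Ptgds, chr2:25469750-25469999: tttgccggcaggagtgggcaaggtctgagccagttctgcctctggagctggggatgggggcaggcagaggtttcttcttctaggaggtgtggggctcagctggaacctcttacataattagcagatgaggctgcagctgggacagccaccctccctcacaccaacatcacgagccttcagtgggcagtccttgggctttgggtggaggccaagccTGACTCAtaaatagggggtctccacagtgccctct
Ptges, chr2:30903298-30903547: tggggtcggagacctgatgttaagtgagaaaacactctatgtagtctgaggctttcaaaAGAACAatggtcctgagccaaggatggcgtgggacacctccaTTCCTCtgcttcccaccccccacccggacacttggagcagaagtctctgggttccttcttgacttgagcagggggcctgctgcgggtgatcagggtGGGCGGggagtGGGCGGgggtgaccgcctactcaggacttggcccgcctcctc
Ltc4s, chr11:50238533-50238782: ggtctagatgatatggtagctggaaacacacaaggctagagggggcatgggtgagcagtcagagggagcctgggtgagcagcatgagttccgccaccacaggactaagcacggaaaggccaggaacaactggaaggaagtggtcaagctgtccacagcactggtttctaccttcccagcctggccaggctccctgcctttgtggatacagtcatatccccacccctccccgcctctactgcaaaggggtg
Ptgds held the AP-1 letters at bases 35 to 29 before its start, as 4.46% of all 32851 windows did somewhere in the same length. Ptges held the GC box 2 times, at bases 53 to 48 and 42 to 37 before its start, letters found in 32.7% of windows. It also held the receptor half-site (bases 191 to 186, 16.1% of windows) and the PU.1 core on the opposite strand (bases 149 to 144, 23.3% of windows). The Ltc4s window held none of the 6 letter strings, and no window held TATAAA (12.4% of all windows) or CCAAT (33.8%). The 3 windows therefore shared no match among the strings searched, and the searched letters say nothing on whether a factor binds there. The windows were 58.4%, 59.6% and 57.6% G or C for Ptgds, Ptges and Ltc4s, against a median of 52.4% over all windows. The windows of Ptgds and Ptges lie inside the annotated spans of the genes (chr2:25466709-25470110 and chr2:30889471-30931020), which extend further upstream.

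**Figure D2:**
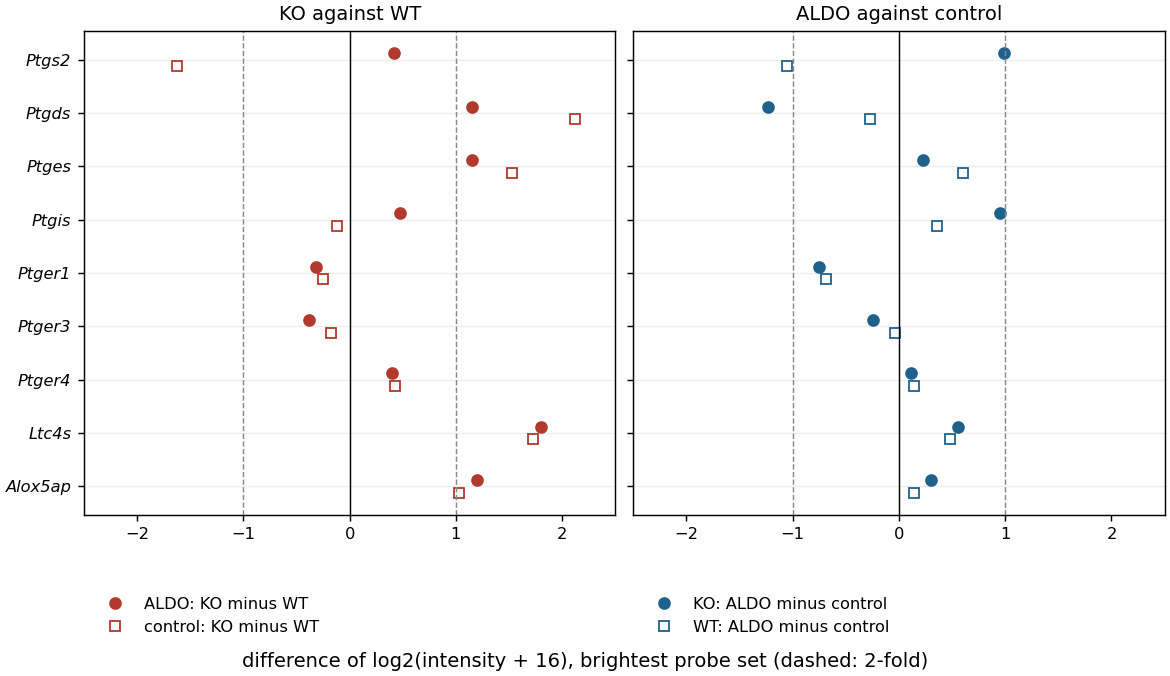
Difference of log2(intensity + 16) for the brightest probe set of each gene, KO minus WT on the left (filled circles under ALDO, open squares under control) and ALDO minus control on the right (filled circles in KO, open squares in WT), with dashed lines at 2-fold. Ptgds, Ptges, Ltc4s and Alox5ap lie right of the 2-fold line in both genotype comparisons, and Ptgds lies left of it for ALDO in KO at -1.23.

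Cyclooxygenase 2, the inducible enzyme that makes prostaglandin H2, was dim. The brighter Ptgs2 probe set read 31.6 in KO ALDO and 8.01 in KO control, against 19.6 in WT ALDO and 58.0 in WT control. The second read 70.9 in KO ALDO and 12.3 in KO control, against 31.0 in WT ALDO and 2.19 in WT control. Both probe sets were higher in KO ALDO than in KO control (log2 differences of 0.99 and 1.62) and than in WT ALDO (0.42 and 0.89). They disagreed on the WT control array, which was the brightest for the first and the dimmest for the second, so KO control against WT control was -1.62 in the first and 0.64 in the second. All 8 values lay under the median of their array, which was 89.5 to 103.

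Ptgds makes prostaglandin D2 and, as a secreted lipocalin, also carries small lipophilic molecules. Its brightest probe set read 3744 in KO ALDO and 8819 in KO control, against 1672 in WT ALDO and 2016 in WT control. KO control was the highest array, and both KO arrays were above both WT arrays. KO ALDO was 2.24 times WT ALDO (log2 difference 1.16), and KO control was 4.37 times WT control (2.12), a difference exceeded by 3 of the 9097 genes in the brighter 50%. The second probe set read 1071 in KO ALDO and 2379 in KO control, against 520 in WT ALDO and 678 in WT control, with log2 differences of 1.02 under ALDO and 1.79 under control.

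Ptgds was also the gene of the list that stood out for ALDO in KO mice. That comparison shares the KO control array, the highest for Ptgds, with KO control against WT control, so these differences are not independent. KO ALDO was at 0.42 of KO control (log2 difference -1.23), and 6 of the 9097 genes in the brighter 50% had a lower difference. In WT the ALDO difference was -0.27. The second probe set gave -1.14 in KO and -0.37 in WT. The difference between the ALDO effects was -0.96 in the first probe set and -0.77 in the second, and with single arrays it was not tested. Ptgds was the only gene of the list lower by 2-fold in KO ALDO than in KO control, where 2.3% of all genes and 0.132% of the brighter 50% were.

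Ptges encodes the inducible microsomal prostaglandin E synthase. It read 581 in KO ALDO and 494 in KO control, against 252 in WT ALDO and 161 in WT control, with both KO arrays above both WT arrays. The log2 difference was 1.15 for KO ALDO against WT ALDO and 1.53 for KO control against WT control. The other 2 probe sets were dimmer and also higher in KO. The second gave 0.59 under ALDO and 1.05 under control, and the third 1.01 and 1.02, so 1 of 3 probe sets fell short of 2-fold under ALDO. For ALDO against control the brightest probe set gave 0.23 in KO and 0.60 in WT, while the third gave -0.01 and -0.00, so its probe sets did not share an ALDO difference.

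Ptgis, the prostacyclin synthase of endothelial and smooth muscle cells, followed another order. It read 476 in KO ALDO and 238 in KO control, against 338 in WT ALDO and 260 in WT control, so both ALDO arrays were above both control arrays. ALDO against control gave 0.95 in KO and 0.36 in WT. KO against WT gave 0.48 under ALDO and -0.12 under control, and a single probe set measured it. The 7 mesangial and smooth muscle markers were all above 0 for ALDO against control in both genotypes, with medians of 0.76 in KO and 0.43 in WT. Their summed intensity was 18859 in KO ALDO and 10955 in KO control, against 12073 in WT ALDO and 8929 in WT control, the same order of arrays for the first 2 places but not for the last 2, and its part in the Ptgis values was not tested.

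Of the receptors for prostaglandin E2, none reached 2-fold in its brightest probe set in any of the 4 comparisons. Ptger4, which raises cyclic AMP, read 1201 in KO ALDO and 1109 in KO control, against 907 in WT ALDO and 819 in WT control. It was higher in KO by 0.40 under ALDO and 0.43 under control, and its dimmer probe set gave 0.64 and 0.23. Both KO arrays were above both WT arrays in each probe set. ALDO against control gave 0.11 in KO and 0.14 in WT.

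Ptger3, which lowers cyclic AMP and is known from the thick ascending limb and collecting duct, read 770 in KO ALDO and 918 in KO control, against 1007 in WT ALDO and 1036 in WT control. KO was lower by 0.38 under ALDO and 0.17 under control. The thick limb gene Slc12a1, the salt cotransporter that furosemide blocks, had the same order under either treatment, with 7130 in KO ALDO against 11951 in WT ALDO and 8941 in KO control against 13536 in WT control. The whole thick limb list was mixed, with 2 of 6 markers above 0 in KO under ALDO (median -0.41) and 3 of 6 under control (-0.06), and its part in the Ptger3 values was not tested. The second Ptger3 probe set read 3.00 to 33.5 and was too dim to describe. Ptger1, a receptor that signals through calcium, was dim as well, with 18.0 in KO ALDO and 41.1 in KO control, against 26.5 in WT ALDO and 52.1 in WT control for its brighter probe set and 5.30 to 8.50 for the other.

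Ltc4s, which makes leukotriene C4, had the largest KO difference of the list under ALDO. It read 1406 in KO ALDO and 949 in KO control, against 391 in WT ALDO and 276 in WT control, so the 2 KO arrays were far above the 2 WT arrays. KO ALDO was 3.60 times WT ALDO (log2 difference 1.80, exceeded by 10 of the 9097 genes in the brighter 50%), and KO control was 3.43 times WT control (1.72, exceeded by 8). ALDO against control gave 0.56 in KO and 0.48 in WT, so the difference between the ALDO effects was 0.08. Ltc4s lies at chr11:50236461-50238532 and was measured by a single probe set.

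Alox5ap read 593 in KO ALDO and 477 in KO control, against 250 in WT ALDO and 226 in WT control. The KO arrays were 2.37 times WT under ALDO (log2 difference 1.19) and 2.11 times under control (1.03, close to the 2-fold line). With each array centred on its median, the control difference was 0.92 and no longer reached 2-fold. ALDO against control gave 0.31 in KO and 0.14 in WT. Its enzyme partner 5-lipoxygenase, Alox5, was dim, with 35.0 in KO ALDO and 48.4 in KO control, against 43.3 in WT ALDO and 11.8 in WT control. KO against WT was -0.22 under ALDO and 1.21 under control, and ALDO against control was -0.34 in KO and 1.09 in WT. Both differences past 2-fold rest on the low WT control value, and at this signal they could not be read.

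**Figure D3:**
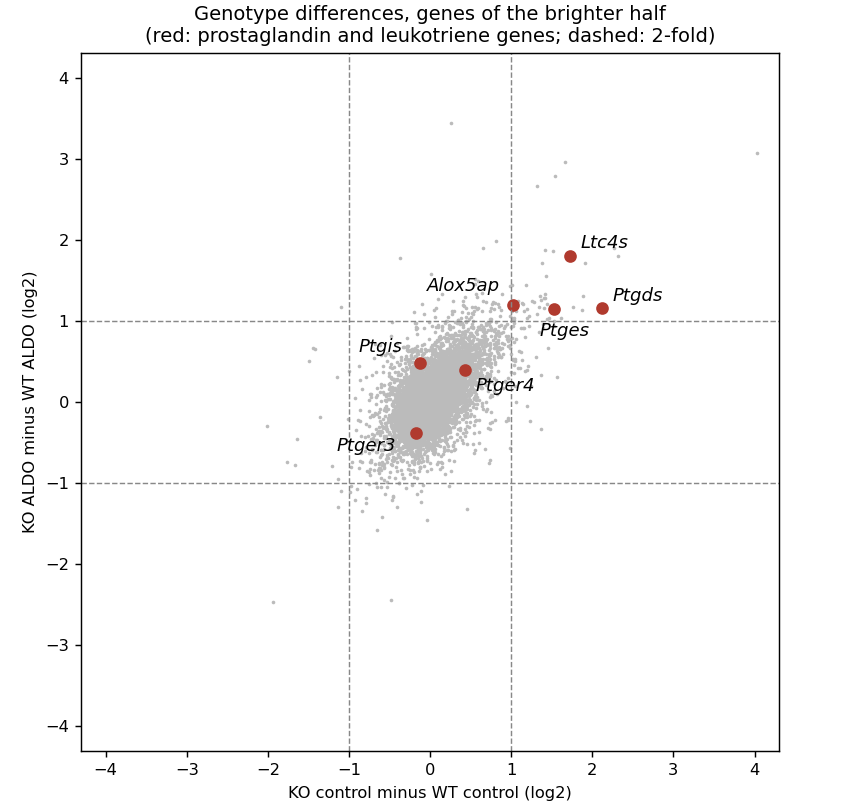
Log2 difference KO ALDO minus WT ALDO (vertical axis) against KO control minus WT control (horizontal axis) for the 9097 genes of the brighter 50% (grey), with the 7 prostaglandin and leukotriene genes among them in red and dashed lines at 2-fold. Ltc4s, Ptgds, Ptges and Alox5ap lie beyond 2-fold on both axes, while Ptger4 (0.43 and 0.40), Ptger3 (-0.17 and -0.38) and Ptgis (-0.12 and 0.48) lie within the cloud of genes.

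Markers of macrophages, and to a smaller extent of endothelial and mesangial or smooth muscle cells, were higher on the KO arrays. Of 14 macrophage markers, 13 were above 0 in KO ALDO against WT ALDO (median 1.24). By 2-fold or more, 10 were higher, where 4.72% of all genes were. All 14 were above 0 in KO control against WT control (median 1.26). By 2-fold or more, 8 were higher, where 4.44% of all genes were. Dim genes reached 2-fold more often, and 9 of the 14 markers were among the 9097 brighter genes. Of these 9, 6 were higher by 2-fold or more under each treatment. Among all 9097 brighter genes, 1.26% were under ALDO and 0.967% under control. The summed intensity of the 14 macrophage markers was 14256 in KO ALDO and 12495 in KO control, against 6462 in WT ALDO and 6222 in WT control. No marker was at 0. The complement gene C1qa, made by macrophages, read 1196 in KO ALDO and 722 in KO control, against 317 in WT ALDO and 243 in WT control, close in pattern to Ltc4s. Csf1r, the receptor for the macrophage growth factor, differed less, by 0.65 under ALDO and 0.31 under control. All 7 endothelial markers were above 0 in KO under each treatment, with medians of 0.46 under ALDO and 0.45 under control, and summed to 21365 in KO ALDO and 18038 in KO control, against 15004 in WT ALDO and 13617 in WT control. Of the 7 mesangial and smooth muscle markers, 6 were above 0 in KO under ALDO (median 0.57) and 7 under control (0.41). The part of these cell types in the 4 genes higher in KO, and of the endothelial list in Ptgis, was not tested.

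The neutrophil and mast cell lists had other orders of arrays. The 5 neutrophil markers measured summed to 1123 in KO ALDO and 1061 in KO control, against 107 in WT ALDO and 829 in WT control, so WT ALDO stood apart, whereas Alox5ap and Ltc4s were lowest in WT control. Under ALDO 4 of the 5 were above 0 in KO, with a median of 1.27, beside 1.24 for the macrophage list. Under control 3 of the 5 were above 0 (median 0.26), and only 1 of the 5 lay in the brighter 50%. None of the 7 mast cell markers was in the brighter 50%. They ranged from Mcpt4, at most 6.04, to Kit, which read 154 to 285 and is not limited to mast cells. Their sum was 478 in KO ALDO and 392 in KO control, against 444 in WT ALDO and 351 in WT control, with 4 of 7 above 0 in KO under ALDO (median 0.04) and 5 of 7 under control (0.03). Of 5 platelet markers, 4 were above 0 in KO under each treatment, with medians of 0.25 under ALDO and 0.18 under control. Under ALDO 1 of them was 2-fold higher and under control 2 were, where 4.72% and 4.44% of all genes were. Pf4 was higher in KO by 1.04 under ALDO and 1.20 under control, Ppbp by 0.44 and 1.06, and Itga2b differed by -0.15 and 0.18. The platelet sum was 927 in KO ALDO and 1300 in KO control, against 652 in WT ALDO and 812 in WT control, which is the order of arrays that Ptgds had. The sizes differed: relative to WT control, the platelet sum was 1.60 in KO control and 1.14 in KO ALDO, and Ptgds 4.37 and 1.86. The part of platelets in the Ptgds values was not tested.

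Collecting duct markers were set beside Ptges, which is also known from that segment. Of 9 markers, 4 were above 0 in KO under ALDO (median -0.20) and 3 under control (median -0.08). The water channel Aqp2 read 3261 in KO ALDO and 3194 in KO control, against 5412 in WT ALDO and 3407 in WT control, a different order from that of Ptges. The sodium channel subunit Scnn1g, however, read 2599 in KO ALDO and 2040 in KO control, against 1235 in WT ALDO and 871 in WT control, with KO higher by 1.06 under ALDO and 1.21 under control. Podocyte markers differed little between genotypes, with medians of 0.14 under ALDO and -0.14 under control.

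**Figure D4:**
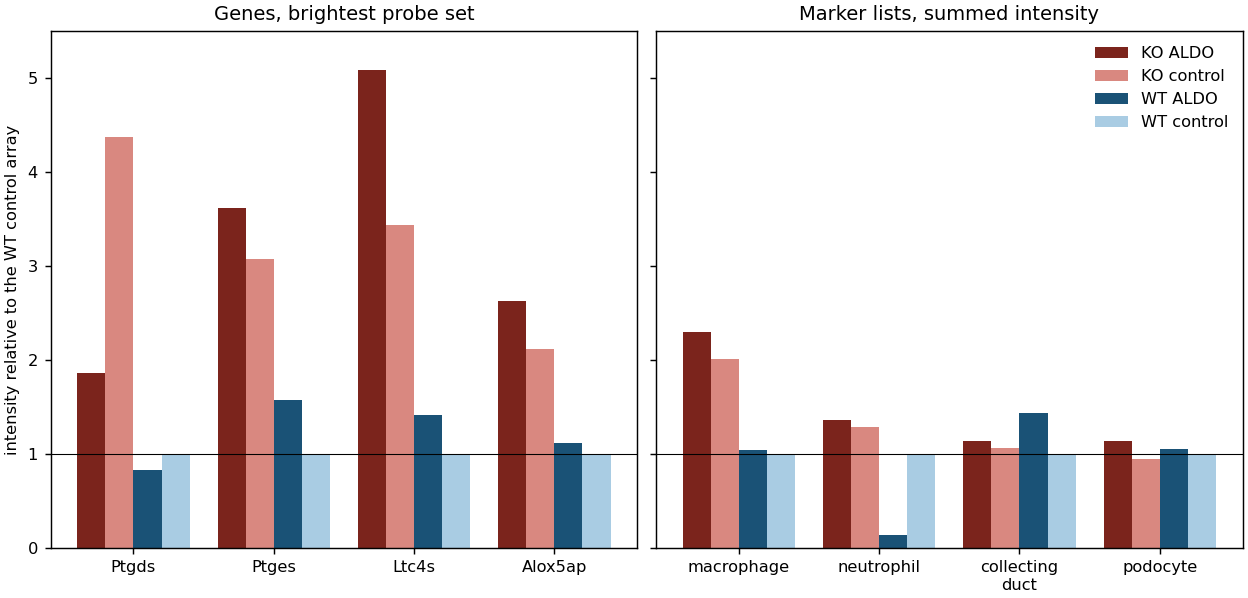
Intensity relative to the WT control array (linear axis from 0), for the brightest probe set of 4 genes (left) and the summed intensity of 4 marker lists (right), with a bar for each of KO ALDO, KO control, WT ALDO and WT control. The macrophage sum is at 2.29 in KO ALDO and 2.01 in KO control and at 1.04 in WT ALDO, Ltc4s reaches 5.08 in KO ALDO, and Ptgds is highest in KO control at 4.37.

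Genes most like each of these 4 in pattern were found among the brighter 50%, by the distance over the 4 log2 values after subtracting each gene's mean. Nearest to Ltc4s were C1qa (distance 0.16), the tight junction gene Cldn4 (0.16) and the cell cycle inhibitor Cdkn1a (0.25), and 4 genes lay within 0.3. Nearest to Ptges were the ammonia transporter Rhcg (0.10), the lectin Lgals3 (0.13) and the matrix proteoglycan Dcn (0.16), with 16 genes within 0.3. Nearest to Alox5ap were the actin-binding drebrin Dbn1 (0.09), Tspan1 (0.14) and the potassium channel Kcnq1 (0.15), with 37 genes within 0.3. Ptgds had no gene within 0.3, and its nearest were the glutamine transporter Slc38a3 (0.63), the immunoglobulin receptor Pigr (0.74) and the lysozyme Lyz1 (0.81), whose near-identical paralog Lyz2 its probes may also read. A pattern over 4 arrays is short, and these likenesses are a description of single arrays.

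The rest of the pathway was taken from a wider list. Of 46 further genes listed, 39 were measured and 20 lay in the brighter 50%. None of these 20 was 2-fold higher or lower in any of the 4 comparisons, where between 0.132% and 1.26% of all genes of the brighter 50% were in either direction, so a count of 0 among 20 is near the background. In KO ALDO against WT ALDO they ranged from -0.41 to 0.95 with a median of 0.13 (0.01 over all genes of the brighter 50%), and in KO control against WT control from -0.66 to 0.55 with a median of -0.03 (-0.00 over all). Of the 19 dim genes, 4 were higher and 2 lower by 2-fold in KO control against WT control (4.44% and 2.46% of all genes). In the brighter 50% these shares were 0.967% and 0.176%, so dim genes were called more often than the shares of all genes show. None was in KO ALDO against WT ALDO (4.72% and 2.34% of all genes). For ALDO against control, 1 was higher and 1 lower in KO (3.83% and 2.3%) and likewise in WT (3.4% and 2.59%).

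Upstream, the cytosolic phospholipase Pla2g4a, which frees arachidonic acid, read 938 in KO ALDO and 518 in KO control, against 615 in WT ALDO and 426 in WT control. It was higher under ALDO than control by 0.84 in KO and 0.51 in WT, and higher in KO by 0.60 under ALDO and 0.27 under control. The calcium-independent phospholipase Pla2g6 had the opposite order between genotypes, -0.14 under ALDO and -0.66 under control, and its highest array was WT control. Pla2g12a was also lower in KO, by 0.41 under ALDO and 0.21 under control.

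Among the other synthases, thromboxane synthase Tbxas1 was lower in KO by 0.27 under ALDO and 0.35 under control, unlike Ptges. It is known from platelets and macrophages. The carbonyl reductase Cbr1, which can convert prostaglandin E2 to F2 alpha, was above 0 in all 4 comparisons, between 0.29 and 0.41. The second prostaglandin E synthase Ptges2 was between -0.37 and 0.02, and Prxl2b between -0.11 and 0.25. The hematopoietic prostaglandin D synthase Hpgds, which catalyses the same step as Ptgds in immune cells, was dim, with 30.6 in KO ALDO and 9.42 in KO control, against 44.7 in WT ALDO and 28.4 in WT control, and did not have the order of Ptgds.

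Of the other prostanoid receptors, 2 lay in the brighter 50%, and of these the prostaglandin F receptor Ptgfr came nearer to 2-fold, with 633 in KO ALDO and 373 in KO control, against 320 in WT ALDO and 278 in WT control. It was higher in KO by 0.95 under ALDO and 0.41 under control, and higher under ALDO by 0.74 in KO and 0.19 in WT. The thromboxane receptor Tbxa2r, a vasoconstrictor receptor, was higher in KO by 0.46 under ALDO and differed by -0.09 under control. Ptger2, Ptgdr, Ptgdr2 and Ptgir were all in the dimmer 50%, and of these Ptgdr was past 2-fold for KO control against WT control, at -1.45.

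Among genes of removal and transport, Abcc4 differed most between treatments. This efflux pump, which exports prostaglandins, read 3500 in KO ALDO and 1971 in KO control, against 3572 in WT ALDO and 2311 in WT control, so both ALDO arrays were above both control arrays, by 0.82 in KO and 0.62 in WT. The prostaglandin uptake carrier Slco2a1 was above 0 in all 4 comparisons, between 0.14 and 0.43. The reductase Ptgr1 was below 0 in all 4, between -0.45 and -0.32, while Ptgr2 lay between -0.22 and 0.03. Hpgd, which inactivates prostaglandins, was 0.41 higher in KO under ALDO and differed by -0.05 under control.

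Beyond Ltc4s and Alox5ap, the leukotriene genes of the brighter 50% stayed within 2-fold, and the others were dim. Lta4h, which makes leukotriene B4, lay between -0.01 and 0.09 in all 4 comparisons, and Mgst3 between 0.14 and 0.21. The peptidase Dpep1, which trims leukotriene D4 and is a proximal tubule enzyme, was lower in KO by 0.33 under ALDO and 0.41 under control, while the 7 proximal tubule markers had medians of -0.34 and -0.22. Ggt5, which converts leukotriene C4 to D4, was higher in KO by 0.67 under ALDO and lower by 0.28 under control. The receptors Cysltr1, Cysltr2 and Ltb4r1 were dim, at most 47.6, and Oxgr1, known also as an oxoglutarate receptor, was higher in KO by 0.69 and 0.44. The 12-lipoxygenase Alox12 was higher in KO by 0.55 under each treatment.

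**Figure D5:**
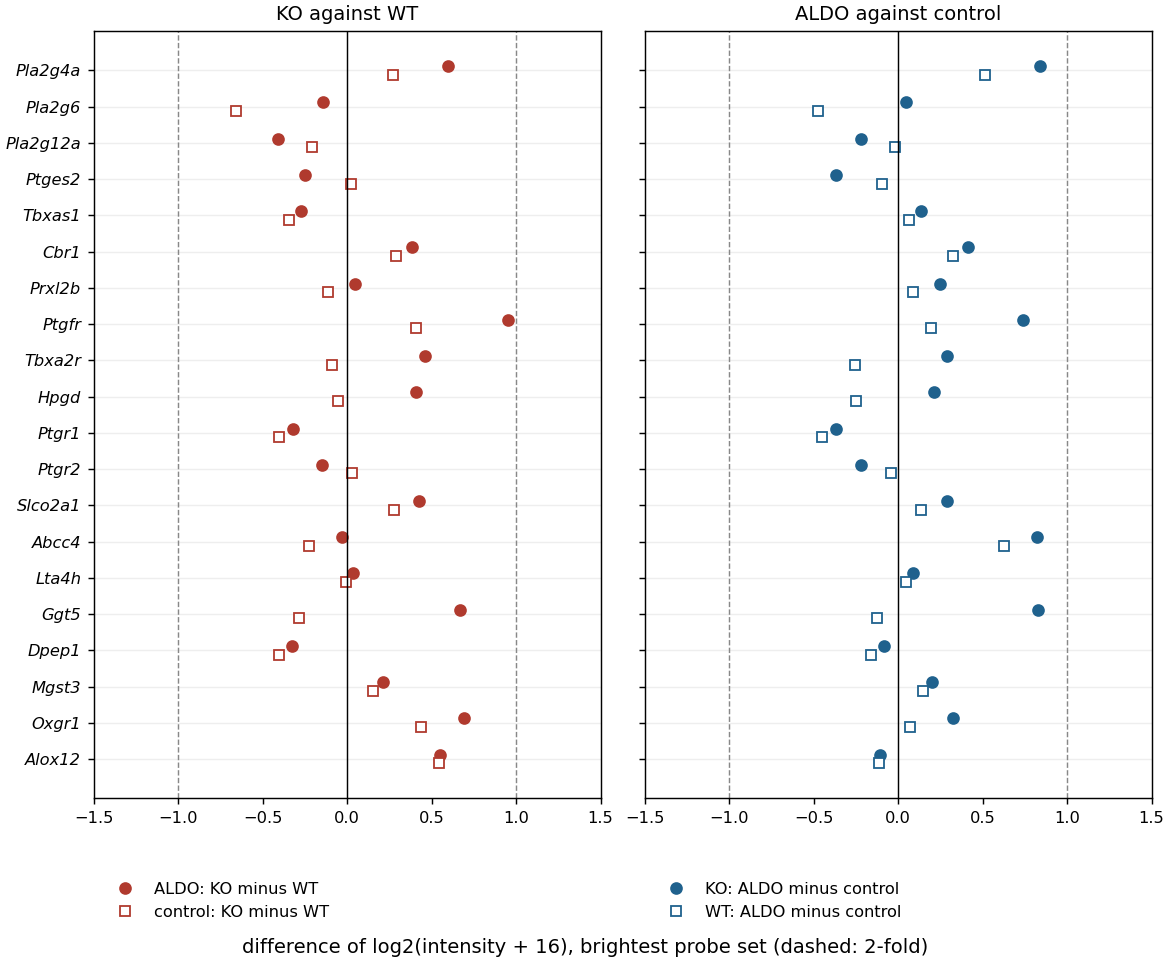
Difference of log2(intensity + 16) for the 20 further pathway genes in the brighter 50%, KO minus WT on the left (filled circles under ALDO, open squares under control) and ALDO minus control on the right (filled circles in KO, open squares in WT), with dashed lines at 2-fold. No point crosses 2-fold, and Ptgfr under ALDO comes nearest at 0.95.

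For ALDO against control, no gene of the list was higher by 2-fold in either genotype, where 3.83% of all genes were in KO and 3.4% in WT, or 0.572% and 0.33% of the brighter 50%. In WT, 1 was lower, the dim Ptgs2 at -1.06, against 2.59% of all genes, and its second probe set gave 1.37. The median over the 9 genes was 0.23 in KO and 0.14 in WT, beside 0.03 and 0.01 over all genes. ALDO against control in KO and in WT share no array, but each shares its arrays with the genotype comparisons above.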

How the data were processed

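Glomerular RNA of 4 groups was measured on 1 Affymetrix mouse 3′ array each, and groups came from the sample titles. The deposited table held linear probe set intensity values, and Affymetrix Expression Console is named per the submitters' processing notes. For its algorithm, version and background correction, nothing is stated in the labels, and detection calls were not used here. The values themselves show scaling to a common trimmed mean, so a change shared by all transcripts could not be seen.

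Of 45101 probe sets, 64 Affymetrix controls were left out. The array annotation gave a single symbol for 34945 and several for 932, which were not used. The brightest probe set stood for its gene (18193 genes). Differences of log2(intensity + 16) and counts at 2-fold were computed with Python 3.11.15, numpy 2.4.6 and pandas 2.3.3. These 2-fold counts and the brightest-probe rule were tested on simulated data, for KO ALDO against WT ALDO only, and the other steps were not. With 1 array per group no error or p-value was computed, and the number of arrays limits precision. The genes, lists and tests were chosen with earlier results of these data known. All measured members are named. Further pathway genes were named by a fixed rule, up to 2 of either sign per list and comparison among the brighter 50%. Some dim genes of the pathway (Alox5, Hpgds, dim receptors), some markers and the promoter motifs were named after their values or sequences were seen. Promoters are from RefSeq.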

Additional observations from a re-analysis of the deposited data

Results flagged for a closer look

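For 2 genes the single arrays of the groups moved in opposite directions, and in neither case was the difference tested. Ptgs2, in its brighter probe set, was 0.42 for KO ALDO against WT ALDO and -1.62 for KO control against WT control, and likewise 0.99 for ALDO against control in KO and -1.06 in WT, so the difference between the effects was 2.04. Its second probe set gave 0.25 for that difference, and both probe sets were dim. Ptgis was 0.48 for KO ALDO against WT ALDO and -0.12 for KO control against WT control, a difference between the effects of 0.60. The second value was small, and opposite in sign to the shift of 0.11 between the medians of those arrays. With each array centred on its median it was -0.23.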

How the results depend on the processing

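Under all 7 alternatives, the count of genes higher in KO by 2-fold was 3 or 4 in both genotype comparisons, and Ptgds and Ltc4s were among them each time. The count was out of 9 genes, or out of 7 in the brighter 50% only, which reused the main values. Ltc4s and Alox5ap have 1 probe set each, so the mean of all probe sets and the next-brightest probe set could not change them. Alox5ap under control treatment missed 2-fold with a pseudocount of 64 (0.90), quantile normalization (0.96) and median centring (0.92). Ptges under ALDO missed it with the mean of all probe sets (0.92) and the next-brightest probe set (0.59). Ptgds stayed lower in KO ALDO than in KO control by 2-fold in every alternative run (-1.30 to -1.14). The other calls, of 2-fold lower or of ALDO against control, came from dim probe sets of Ptgs2, Ptger1 and Ptger3. For KO control against WT control and for WT ALDO against WT control, 0 genes were lower with a pseudocount of 64, with the mean of all probe sets and in the brighter 50% only, in place of 1. For KO ALDO against KO control, 1 gene was higher with a pseudocount of 1, the mean of all probe sets or the next-brightest probe set, in place of 0, and 2 (Ptgds and the dim Ptger1) were lower with a pseudocount of 1, in place of 1. For WT ALDO against WT control 1 gene was higher with the next-brightest probe set. Ptgs2 changed sign: 0.64 for KO control against WT control with the next-brightest probe set, and for WT ALDO against WT control 1.37 with that probe set and 0.16 with the mean of both. No paired analysis was possible because each group held 1 array, and for the same reason no array could be left out.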
